A study of Rattus norvegicus with 8 samples.

Results

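The potassium channels described here were 10 genes of 4 groups, chosen by symbol: the strong inward rectifiers Kir2.1 (Kcnj2) and Kir2.2 (Kcnj12), the G protein-gated inward rectifiers GIRK1 (Kcnj3) and GIRK4 (Kcnj5), the two-pore domain channels TWIK-1 (Kcnk1), TREK-1 (Kcnk2), TASK-1 (Kcnk3) and TWIK-2 (Kcnk6), and the small conductance calcium-activated channels SK2 (Kcnn2) and SK3 (Kcnn3). Of these, 9 genes were represented by 16 of the 31042 probe sets of an Affymetrix GeneChip for the rat genome. No probe set carried the symbol of Kcnn2 in the annotation used, so SK2 was not analysed here. The tissues were the atrial appendage and the ventricular free wall of 13 normal male Sprague-Dawley rats of 225 to 275 g. Their side is given as left by the study's methods and not by the sample labels. Tissue from several animals was pooled before RNA extraction, giving 4 atrial and 4 ventricular pools with 1 array each, and which animals entered which pool was not stated in the sources used here. Whole pieces of heart wall were used, so fewer cells of a type and less RNA per cell cannot be told apart in any value below.

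All of these channels carry potassium out of the cell and hold or return the membrane towards its resting potential. Kir2 channels pass the strong inward rectifier current that holds the resting potential of ventricular muscle. GIRK1 and GIRK4 assemble into the channel behind the acetylcholine-activated current of atrial and pacemaker cells, which opens when G protein beta-gamma subunits are released by the muscarinic M2 or adenosine A1 receptor. Two-pore domain channels give background currents, of which that of TREK-1 responds to stretch and fatty acids and that of TASK-1 is closed by acid. SK channels open on calcium through calmodulin that is bound to them and take part in atrial repolarization.

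The RefSeq start sites of the members were read from the rat assembly GRCr8, in windows from 250 bases before to 50 bases after the annotated start. Such a window was given for 4 of the 9 measured members, in 5 windows, and those of Kcnj5 and Kcnk2 are shown because these genes were among the most strongly atrial members and have an entry in the table used. The Kcnj5 window lies on the minus strand at chr8:39011047-39011346, and the 2 windows of Kcnk2 lie on the minus strand at chr13:103438593-103438892 and chr13:103494637-103494936. Capitals mark matches to AAGTG, the core letters bound by Nkx2-5, a homeobox factor of heart muscle.
Kcnj5: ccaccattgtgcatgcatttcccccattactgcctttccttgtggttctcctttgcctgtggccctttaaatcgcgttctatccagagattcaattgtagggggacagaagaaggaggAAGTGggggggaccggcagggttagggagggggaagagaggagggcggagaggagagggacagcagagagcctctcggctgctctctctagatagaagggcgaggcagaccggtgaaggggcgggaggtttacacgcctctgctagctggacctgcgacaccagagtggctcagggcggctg
Kcnk2 start 1: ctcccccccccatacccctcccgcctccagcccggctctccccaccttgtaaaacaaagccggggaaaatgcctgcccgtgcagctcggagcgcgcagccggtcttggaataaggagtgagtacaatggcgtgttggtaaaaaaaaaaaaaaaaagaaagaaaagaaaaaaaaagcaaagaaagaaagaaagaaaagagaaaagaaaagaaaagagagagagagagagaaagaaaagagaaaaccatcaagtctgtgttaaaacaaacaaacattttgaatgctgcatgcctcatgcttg
Kcnk2 start 2: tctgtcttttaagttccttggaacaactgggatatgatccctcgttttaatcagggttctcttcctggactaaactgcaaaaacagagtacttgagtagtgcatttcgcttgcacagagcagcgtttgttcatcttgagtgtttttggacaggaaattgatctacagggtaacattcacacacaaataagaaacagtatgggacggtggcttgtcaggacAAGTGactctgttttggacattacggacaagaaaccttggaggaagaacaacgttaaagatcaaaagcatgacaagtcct
The Kcnj5 window was richer in G and C, at 59.0%, than those of Kcnk2, at 44.3% and 41.7%. The search covered both strands for AAGTG, for GATAA of the GATA factors, for GGTGTG of the T-box factors, for AGGTCA of the nuclear receptors and for TATAA of the TATA box. AAGTG began 132 bases before the start in Kcnj5 and 30 bases before the second start of Kcnk2, and these letters occurred in 46.2% of all 33469 windows of this length. No searched letters were found in the window of the first start of Kcnk2. Of the other windows, that of Kcnj2 held GATAA on the opposite strand 29 bases before the start, letters present in 26.5% of all windows. That of Kcnn3 held AAGTG and TATAA at 61 and 42 bases before the start, the latter present in 26.2% of all windows. GGTGTG and AGGTCA, found in 17.9% and 16.2% of all windows, were in 0 of the 5.

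Values were log2 signal intensities, so that a difference of 1 is a 2-fold change, and the arrays had medians of 4.80 to 4.81. Levels of different probe sets cannot be set against each other, since each binds its target with its own strength. The tissue labels were borne out by the chamber markers: all 6 atrial muscle genes were called higher and all 6 ventricular muscle genes lower in the atria. Atrial replicates 1 and 4 stood apart from the other atrial arrays at the brighter probe set of Myl2, the ventricular regulatory light chain, and in Myl3. The signal of Myl2 there was 10.48, 4.32, 6.82 and 11.30 in atrial replicates 1 to 4, against 13.23 to 13.30 in the ventricles. Myl3 read 9.93, 8.06, 7.75 and 10.43 on the atrial arrays. At the other probe set of Myl2 they read 4.12, 3.94, 4.12 and 4.82, so that replicate 1 did not stand apart. Values are therefore also given without these 2 arrays where a result rests on them.

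Of the 16 channel probe sets, 7 were called higher and 2 lower in the atria at a limma adjusted p below 0.05, and 7 were not called. Over all 31042 probe sets, 18.6% were called higher and 20.1% lower. At the study's thresholds, an adjusted p below 0.0001 together with a difference of at least 1.8 fold, 5 channel probe sets passed, against 4.51% of all probe sets, and all 5 were higher in the atria. These were 2 probe sets of Kcnj3, 2 of Kcnj5 and 1 of Kcnk2. All 4 atrial arrays lay above all 4 ventricular arrays in 7 channel probe sets, against 17.7% of all probe sets. The reverse order was seen in 1, against 19.2% of all. Taking the brightest probe set of each gene, 4 of the 9 genes were higher, 1 was lower and 4 were not called, where 22.5% of 14217 genes were higher and 22.5% lower. The genes past the study's thresholds were 3 of 9, against 5.89% of all genes. Of these 3, Kcnk2 stands at a probe set that is its brightest only through the atrial arrays. Its ventricular mean there was 6.53, below the 6.61 of its other probe set, where the difference between the chambers was 0.01. The study itself selected Kcnj3, Kcnj5 and Kcnk2 on these same arrays, so their direction here is not independent evidence. Apart from the arrays, the study reported a higher atrial abundance of TREK-1 by real-time PCR, which was not analysed here.

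**Figure D1:**
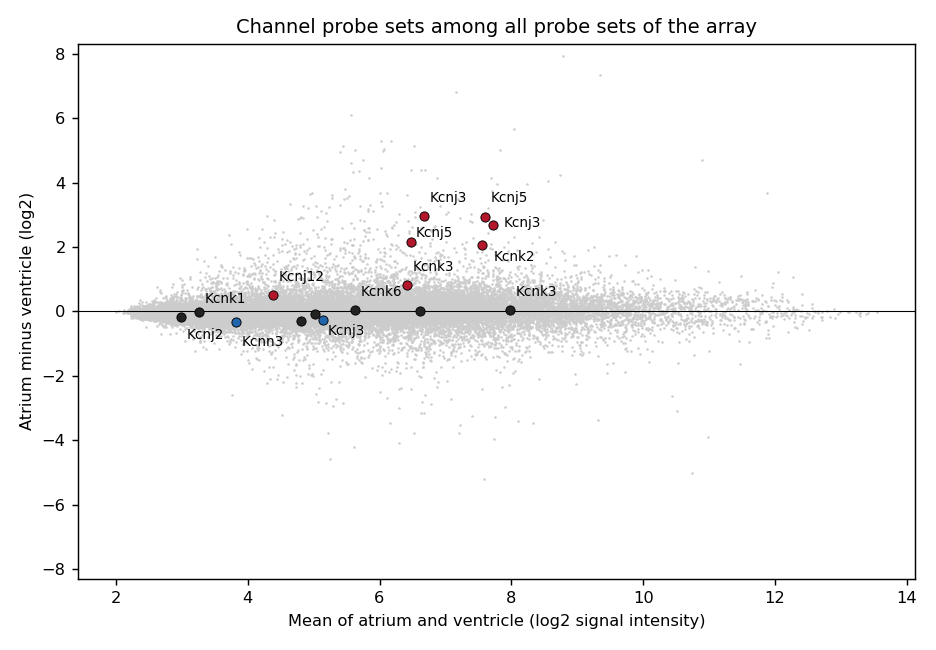
Each point is a probe set, placed by the mean of the atrial and ventricular means (x axis, log2 signal intensity) and by atrium minus ventricle (y axis, log2); grey points are all 31042 probe sets and large points the 16 channel probe sets, red where called higher in the atria, blue where lower and black where not called. Probe sets of Kcnj3, Kcnj5 and Kcnk2 stand between 2.07 and 2.96 above 0, and the remaining channel points lie within 0.82 of it.

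The GIRK subunits had the largest differences of the measured members. GIRK1 has no functional homomer at the cell surface and depends on GIRK4 to reach it in heart muscle. At the brightest of the 3 probe sets of Kcnj3 (1369741_at) the atrial arrays read 9.23, 9.09, 9.22 and 8.70 and the ventricular arrays 6.60, 6.13, 6.51 and 6.34. The groups were far apart, with the lowest atrial array, replicate 4, still more than 2 log2 units above the highest ventricular array. The difference was 2.67 (SE 0.13, n = 4 per group), or 6.35 fold with a 95% confidence interval of 5.17 to 7.79 (limma adjusted p = 1.5e-07). At 1369740_at the atrial arrays read 8.34, 8.28, 8.26 and 7.76 and the ventricular arrays 5.19, 5.26, 4.84 and 5.52. Again there was no overlap, and the difference of 2.96 (SE 0.16) was 7.76 fold (adjusted p = 2.1e-07). The third probe set, 1388292_at, ran the other way with a small difference: 4.90, 4.98, 4.85 and 5.23 in the atria and 5.20, 5.23, 5.31 and 5.37 in the ventricles. The groups overlapped through atrial replicate 4, and the difference of -0.28 (SE 0.09) was called lower at an adjusted p of 0.024. That call was lost when any 1 of 5 arrays was left out, namely atrial replicate 1 (adjusted p = 0.064), 2 (0.053) or 3 (0.072) or ventricular replicate 3 (0.06) or 4 (0.066).

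Kcnj5, the GIRK4 subunit, was higher in the atria at both of its probe sets. At 1368560_at the atrial arrays read 9.23, 9.09, 9.16 and 8.80 and the ventricular arrays 6.14, 6.11, 5.95 and 6.31. The atrial arrays formed a group of their own, with replicate 4 the lowest. The difference of 2.94 (SE 0.10) was 7.68 fold, with an interval of 6.54 to 9.02 (limma adjusted p = 1.4e-08), the smallest p among the channel probe sets. At 1387248_at the atrial arrays read 7.71, 7.49, 7.64 and 7.32 and the ventricular arrays 5.55, 5.03, 5.42 and 5.59. Here too the groups did not overlap, and the difference was 2.14 (SE 0.13) or 4.42 fold (adjusted p = 4.9e-07). The 2 probe sets of Kcnj5 thus differed in how far the gene was raised, by 0.80.

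The ventricular signal of the GIRK genes lay above the array medians. The 2 strongly atrial probe sets of Kcnj3 had ventricular means of 6.39 ± 0.21 and 5.20 ± 0.28. Those of Kcnj5 had 6.13 ± 0.15 and 5.40 ± 0.26 (SD, n = 4). A mean above the median does not by itself show expression. Myl4, an atrial muscle marker, had a ventricular mean of 5.68 against 13.01 in the atria. Whether these ventricular values are expression or background was not tested. In all 5 channel probe sets past the study's thresholds, atrial replicate 4 had the lowest atrial value. This array had the highest Myl2 signal of the atria, but also the highest signal of the adipocyte genes Plin1 (9.03, against 4.37 to 6.75 on the other atrial arrays), Cidec (8.01, against 3.84 to 6.25) and Adipoq (8.09, against 5.76 to 7.04), and the lowest of the mesothelial gene Krt19 (7.14, against 7.92 to 8.51). Atrial replicate 1, with the next highest signal at the brighter probe set of Myl2, had the highest atrial values in the 4 strongly atrial probe sets of Kcnj3 and Kcnj5. The part of any of these in the channel values was not tested. Without atrial replicates 1 and 4 the differences were 2.76 and 3.07 for the 2 atrial probe sets of Kcnj3, 3.00 and 2.17 for those of Kcnj5 and 2.27 for that of Kcnk2, so each was at least as large with these arrays left out.

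**Figure D2:**
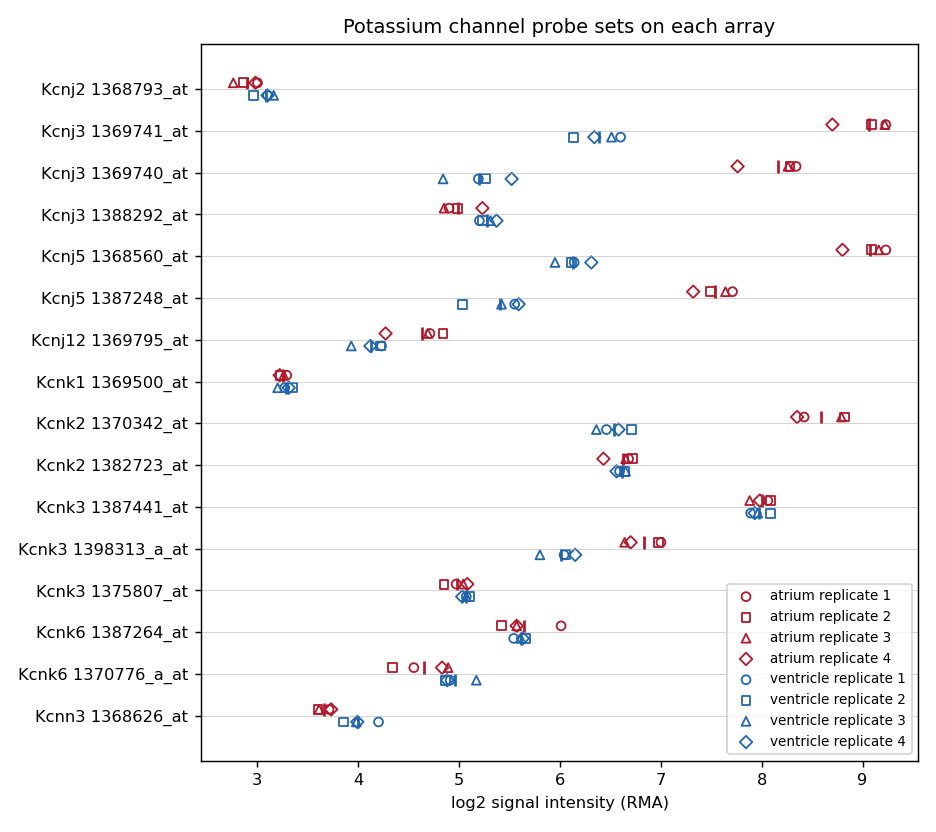
The log2 signal intensity of each array (x axis) is shown for the 16 channel probe sets (y axis), with atrial arrays in red above and ventricular arrays in blue below each line, a symbol for each replicate and a vertical tick at the group mean. The red symbols stand clear of the blue in 1369741_at and 1369740_at of Kcnj3, in both probe sets of Kcnj5, in 1370342_at of Kcnk2, and by smaller gaps in 1398313_a_at of Kcnk3 and in Kcnj12.

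The differences of the Kir2 genes were small. For Kcnj12, which encodes Kir2.2, the atrial arrays read 4.71, 4.84, 4.69 and 4.27 and the ventricular arrays 4.23, 4.22, 3.93 and 4.12. The groups touched without overlap, with atrial replicate 4 at 4.27 and ventricular replicate 1 at 4.23. Kcnj12 was 1.41 fold higher in the atria, a difference of 0.50 (SE 0.12, limma adjusted p = 0.007), and 0.64 without atrial replicates 1 and 4. Its ventricular mean of 4.13 lay at the upper limit of the dimmest 40% of probe sets. For Kcnj2, which encodes Kir2.1, the atrial arrays read 3.00, 2.86, 2.76 and 2.98 and the ventricular arrays 3.10, 2.96, 3.16 and 3.10. Ventricular replicate 2 lay within the atrial range. The difference of -0.18 (SE 0.07, interval -0.34 to -0.01) was not called at an adjusted p of 0.084, and became -0.27 at an adjusted p of 0.026 without atrial replicates 1 and 4. The mean of this probe set lay at percentile 14.6 of the array, among the dimmest 40% of probe sets, where a small difference in signal can stand for a larger one in RNA.

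Among the two-pore domain channels, TREK-1 was the strongly atrial member. At the brighter probe set of Kcnk2, 1370342_at, the atrial arrays read 8.42, 8.82, 8.79 and 8.35 and the ventricular arrays 6.46, 6.71, 6.36 and 6.58. The groups did not overlap, and atrial replicates 1 and 4 were the lower atrial arrays. The difference of 2.07 (SE 0.12) was 4.19 fold, with an interval of 3.49 to 5.03 (limma adjusted p = 3.9e-07). The other probe set, 1382723_at, gave 6.68, 6.72, 6.65 and 6.43 on the atrial arrays and 6.59, 6.64, 6.65 and 6.56 on the ventricular ones. Its groups overlapped, and its difference of 0.01 had an interval that allowed atrial over ventricular ratios of 0.903 to 1.13 (adjusted p = 0.9).

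TASK-1 had 3 probe sets that did not give 1 answer. At the brightest, 1387441_at, the atrial arrays read 8.06, 8.09, 7.88 and 7.98 and the ventricular arrays 7.89, 8.09, 7.96 and 7.93. These groups overlapped over most of their range, with a difference of 0.03 (SE 0.07) and a ratio interval of 0.919 to 1.14 (adjusted p = 0.73). At 1398313_a_at the atrial arrays read 7.00, 6.98, 6.64 and 6.70 and the ventricular arrays 6.04, 6.05, 5.80 and 6.15. All atrial arrays were above all ventricular arrays here, by 0.82 (SE 0.10) or 1.76 fold (adjusted p = 1.3e-04), which falls just short of the study's 1.8 fold and of its p threshold. At 1375807_at the atrial mean was 4.98 ± 0.10 and the ventricular mean 5.07 ± 0.03 (adjusted p = 0.32).

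TWIK-1 and TWIK-2, weakly rectifying background channels, were not called at any probe set. Kcnk1 was dim, at percentile 22.2, its atrial arrays spanning 3.22 to 3.29 and its ventricular arrays 3.20 to 3.35, for a difference of -0.03 with a ratio interval of 0.894 to 1.07. At 1387264_at of Kcnk6 atrial replicate 1, at 6.01, was above the other 3 atrial arrays at 5.42 to 5.57, and the ventricles lay at 5.54 to 5.66. The difference there was 0.03 (SE 0.11), with a ratio interval of 0.862 to 1.21. At 1370776_a_at the atrial arrays of Kcnk6 read 4.55, 4.34, 4.89 and 4.83 and the ventricular arrays 4.91, 4.86, 5.17 and 4.88. The groups overlapped through atrial replicate 3, and the difference of -0.31 (SE 0.12) was not called (adjusted p = 0.071). It was called at an adjusted p of 0.038 without atrial replicate 3, at 0.038 without atrial replicate 4, and at 0.031 in a fit with the replicate number as a block.

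Of the SK genes, Kcnn3 was measured and was lower in the atria. Its single probe set gave 3.71, 3.60, 3.61 and 3.73 on the atrial arrays against 4.20, 3.85, 3.98 and 3.99 on the ventricular ones. All ventricular arrays were above all atrial arrays, the only channel probe set with that order. The difference of -0.34 (SE 0.08, interval -0.52 to -0.16) was 1.27 fold (limma adjusted p = 0.0064), and -0.40 without atrial replicates 1 and 4. This probe set too was among the dimmest 40%, at percentile 34.8, and the filter on dim probe sets, which 13 of the 16 passed, removed it together with Kcnj2 and Kcnk1.

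**Figure D3:**
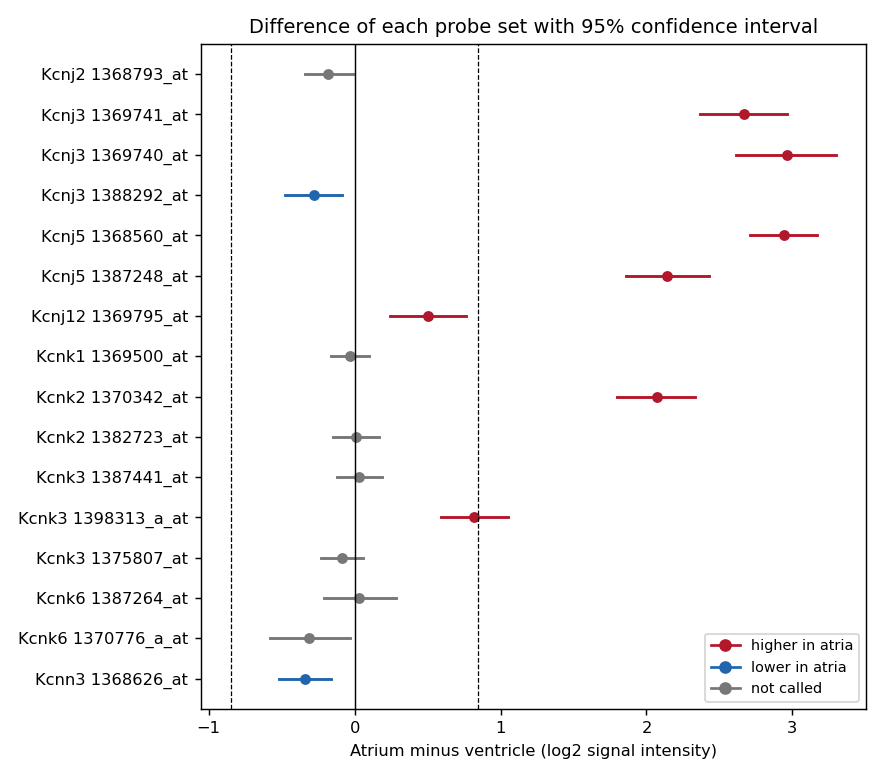
Atrium minus ventricle (x axis, log2 signal intensity) is plotted for each channel probe set (y axis) as a point with its 95% confidence interval, in red where called higher in the atria, blue where lower and grey where not called; dashed lines mark 1.8 fold in either direction, 0.848 on the log2 scale. The intervals of 5 probe sets of Kcnj3, Kcnj5 and Kcnk2 lie wholly past the right dashed line, and that of Kcnk3 1398313_a_at, 0.59 to 1.05, spans it.

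Probe sets of the same gene were compared within each array, in 7 pairs formed after the values had been seen. The gap between 2 probe sets differed between the chambers at the smallest p that 4 against 4 arrays allow, an exact two-sided permutation p of 0.0286 (0.05 adjusted over the 7 pairs), in 4 of them. These were 1369741_at against 1388292_at of Kcnj3 (2.95), the pair of Kcnj5 (0.80), the pair of Kcnk2 (2.05) and 1387441_at against 1398313_a_at of Kcnk3 (-0.79). For 1369741_at against 1369740_at of Kcnj3 the gap differed by -0.29 (exact permutation p = 0.371), for 1387441_at against 1375807_at of Kcnk3 by 0.12 (0.257) and for the pair of Kcnk6 by 0.34 (0.2). Which part of each transcript a probe set reads was not given in the tables used. A gene-level value for Kcnk2 or Kcnk3 therefore depends on the probe set that stands for it: Kcnk2 is atrial and Kcnk3 is not called by their brightest probe sets, and the mean of all probe sets narrowed their difference from each other from 2.03 to 0.78.

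Related channels were then compared by the change of their gap between the chambers, in 4 pairs. For TREK-1 and TASK-1 the log2 gap Kcnk2 minus Kcnk3 was 0.36, 0.73, 0.91 and 0.37 in the atria and -1.43, -1.38, -1.60 and -1.35 in the ventricles. The gap was higher by 2.03 in the atria, with no overlap (exact two-sided permutation p = 0.0286, 0.0571 adjusted over the 4 pairs). This gap takes Kcnk2 at the probe set that is brightest through the atrial arrays, and changed by 0.78 with the mean of all probe sets. For Kir2.1 and Kir2.2 the gap Kcnj2 minus Kcnj12 was -1.71, -1.98, -1.93 and -1.28 in the atria and -1.13, -1.26, -0.77 and -1.02 in the ventricles. It differed by -0.68 at the same exact permutation p, again with no overlap. Kcnj2 was among the dimmest 40% of probe sets, and the ventricular mean of Kcnj12, 4.13, lay at the upper limit of that range. After adjustment neither pair passed 0.05, and 0.0286 is the smallest p that the 70 relabellings allow.

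For the partners of the GIRK channel the change was smaller at their brightest probe sets. The gap Kcnj3 minus Kcnj5 was 0.00, 0.00, 0.07 and -0.10 in the atria and 0.46, 0.02, 0.57 and 0.03 in the ventricles. The atrial arrays were within 0.17 of each other while the ventricular arrays fell into a higher and a lower pair, and the groups overlapped. The change of -0.28 was not called (exact permutation p = 0.143, adjusted 0.19), and ran from -0.36 without ventricular replicate 2 or 4 to -0.18 without ventricular replicate 3. With the mean of all probe sets, which takes in 1388292_at, it was -0.76 (adjusted p = 0.0381). The gap Kcnk1 minus Kcnk6 changed by -0.07 (exact permutation p = 0.8), and the pair Kcnn2 and Kcnn3 could not be formed.

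**Figure D4:**
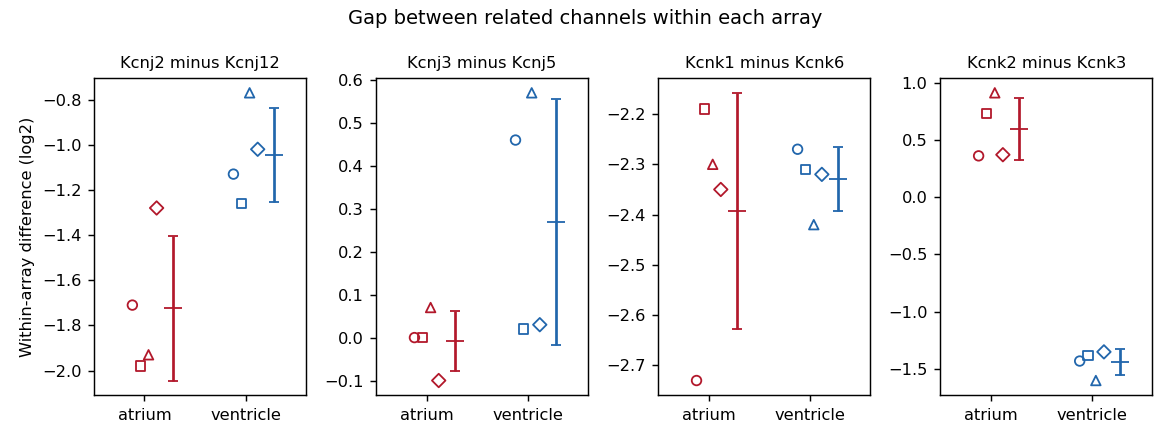
Each panel plots, for 1 pair of related channels, the difference of their log2 signals within each array (y axis, log2, each panel on its own scale), in red for the 4 atrial and blue for the 4 ventricular arrays, with circles, squares, triangles and diamonds for replicates 1 to 4 and the mean ± SD beside them. Only the change between the chambers can be read, since the height depends on the probe sets, and the atrial and ventricular symbols separate for Kcnj2 minus Kcnj12 and Kcnk2 minus Kcnk3.

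The genes whose profile over the 8 arrays lay nearest to that of each strongly atrial channel are given as a description, by the Euclidean distance of profiles centred on their means among 14217 genes. Nearest to Kcnj3 were Sfrp1 at 0.33, Art1 at 0.46 and Bnc2 at 0.47, with Kcnj5 at rank 14 and a distance of 0.64. Nearest to Kcnj5 were Abcc3 at 0.29, Mbp at 0.31 and Gpr15lg at 0.39, with Kcnj3 at rank 21. Nearest to Kcnk2 were Etv1 at 0.34, Pkhd1l1 at 0.38 and Tbc1d10c at 0.43, with Kcnj3 at rank 154 and Kcnj5 at rank 246. All 9 of these named neighbours in profile were higher in the atria, by 1.98 to 2.92, a size that the measure of likeness itself selects.

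The order of genes along the chromosomes in the RefSeq table placed an inward rectifier beside 2 members. The atrial mean of Kcnj1, next to Kcnj5, was 2.66 and its ventricular mean 2.67 (adjusted p = 0.93), beside the difference of 2.94 of Kcnj5. Kcnj16, next to Kcnj2, had means of 2.97 and 3.06 (adjusted p = 0.34). Galnt13, next to Kcnj3, was higher in the atria by 1.69 (adjusted p = 1.6e-06), and Nr4a2 on its other side differed by 0.10 (adjusted p = 0.69). Slc35f6, next to Kcnk3, was higher by 0.72 (3.0e-04), Map2k3, next to Kcnj12, was at -0.55 (2.6e-05) against the 0.50 of Kcnj12, and Adar, next to Kcnn3, was higher by 0.41 (0.0027) against the -0.34 of Kcnn3, while Pmvk on its other side differed by 0.03 (0.78). The other neighbours in the table were not analysed here.

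The other genes of these channel families were taken at their brightest probe sets. Of the other inward rectifiers, 11 of 11 were measured, 0 were higher by limma (0 also at an unadjusted p below 0.05), 4 were lower and 7 were not called, with a median difference of -0.11 beside -0.04 over all genes. Of these, 8 were among the dimmest 40% of probe sets, where a difference may not be seen. Kcnj8, the pore subunit Kir6.1 of ATP-sensitive channels of vessels, was lower in the atria by 2.03 fold (-1.02, SE 0.06, limma adjusted p = 3.6e-07). Kcnj15 (-0.52, adjusted p = 7.8e-04) and Kcnj13 (-0.34, 0.0051) were lower as well, from signal among the dimmest 40%, and the other probe set of Kcnj15 was at -0.05 (0.67). The difference of Kcnj11, the Kir6.2 pore of ATP-sensitive channels of heart muscle, was -0.11 and was not called (adjusted p = 0.21). Its other probe sets were at 0.17 (0.14) and 0.03 (0.81), also not called. Of the sulfonylurea receptors, which surround those pores, Abcc9 was 1.8 fold lower in the atria (-0.85, adjusted p = 1.4e-05), while Abcc8 differed by 0.16 (adjusted p = 0.099).

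Of the 10 other two-pore domain channels named, 7 were measured, all 7 among the dimmest 40% of probe sets, with a median difference of -0.13. By their brightest probe sets 0 were called by limma, and 0 higher and 2 lower at an unadjusted p below 0.05, while the other probe set of Kcnk10 was called lower (-0.25, adjusted p = 0.032). Of the other calcium-activated channels, 5 of 7 were measured, 1 was higher and 2 were lower, with a median of -0.08. Kcnn4, the intermediate conductance channel, was higher by 0.46 (adjusted p = 0.0046), also from signal among the dimmest 40%. Kcnn1, the SK1 subunit, was at -0.49 (adjusted p = 0.0022), the same direction as Kcnn3, and Kcnmb4, an auxiliary subunit of the large conductance channel, was at -0.43 (adjusted p = 8.8e-04). Of the calmodulin complex bound to SK channels, 6 of 8 genes were measured, 2 higher, 1 lower and 3 not called, with a median of 0.03. Calm2, a calmodulin gene, was higher by 0.60 (adjusted p = 4.7e-05), Csnk2a1, the catalytic subunit of casein kinase 2, by 0.36 (0.0014), and Csnk2b, its regulatory subunit, was at -0.18 (0.027). Csnk2a2, the other catalytic subunit, counts as not called from its brightest probe set (0.07, adjusted p = 0.51), but its other 4 probe sets were called higher, by 0.36 to 0.49 (adjusted p = 0.0014 to 0.013).

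Upstream of the GIRK channel, 18 of 20 receptor and G protein genes were measured, of which 7 were higher, 6 lower and 5 not called, with a median difference of -0.00. The genes furthest above 0 were Gng2, a gamma subunit, by 1.45 or 2.74 fold (limma adjusted p = 1.1e-06), Gnao1, the alpha subunit Go, by 1.21 or 2.31 fold (3.8e-06), and Gng3 by 0.97 or 1.96 fold (6.9e-06). The genes furthest below were Gnb3, a beta subunit, at -1.87 or 3.66 fold lower (2.8e-07), Gng11 at -0.48 (3.8e-04) and Gnb4 at -0.40 (0.0044). The other probe sets of Gng2 and Gng11 gave larger differences, of 1.88 (5.4e-06) and -1.23 (3.8e-07). The receptors and the inhibitory alpha subunits were chosen for mention after their values had been seen. Chrm2, the muscarinic M2 receptor, gave 6.96, 7.33, 6.89 and 7.08 on the atrial arrays against 6.22, 6.22, 6.46 and 6.33 on the ventricular ones. All its atrial arrays were above all ventricular arrays, by 0.75 or 1.69 fold (adjusted p = 1.5e-04), a smaller difference than those of Kcnj3 and Kcnj5. Adora1, the adenosine A1 receptor, was higher by 0.64 (adjusted p = 6.9e-04) at its brighter probe set and by 0.23 (0.062, not called) at the other. Gnai2 was at -0.34 (0.0018) and Gnai1 at 0.01 (0.96).

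Among the RGS proteins, which speed the closing of GIRK channels by turning G proteins off, and their binding partners, all 10 genes were measured, 5 higher, 3 lower and 2 not called, with a median of 0.31. Rgs2 was 2.61 fold higher in the atria (1.39, adjusted p = 2.3e-07), Rgs6 2.47 fold (1.30, adjusted p = 1.5e-05) and Rgs7 2.03 fold (1.02, adjusted p = 5.8e-05). Rgs6 and Rgs7 are the R7 family members that act on GIRK with Gnb5 and Rgs7bp, which were higher by 0.57 (adjusted p = 6.7e-04) and 0.91 (0.0023) and are named after their values were seen. The signal of Rgs7bp was among the dimmest 40%, and the ventricular mean of Rgs7, 3.69, lay in that range. Rgs5, a gene of pericytes, was 2.33 fold lower (-1.22, adjusted p = 3.6e-07), Rgs16 was at -0.98 (5.0e-05) and Rgs4 at -0.58 (2.3e-05), with its other probe set at -0.36 (0.006). Of 15 measured scaffold and trafficking genes of 16 named, 3 were higher, 2 lower and 10 not called, with a median of -0.01. S100a10, an annexin partner that binds TASK-1, was higher by 0.56 (adjusted p = 1.3e-04), Cav3, the caveolin of muscle, by 0.52 (6.6e-05) and Ank2, an ankyrin, by 0.40 (0.0012), where its other probe sets were at -0.16 and -0.15 and not called. Snx27, a sorting nexin, was at -0.43 (0.018) at the brightest of its 4 probe sets and at -0.26 to 0.15 at the others, and Flna, a filamin that binds Kir2.1, was at -0.29 (0.011). Over all these related lists, 74 of 84 genes were measured and 18 were higher, 19 lower and 37 not called, near the shares of all genes.

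**Figure D5:**
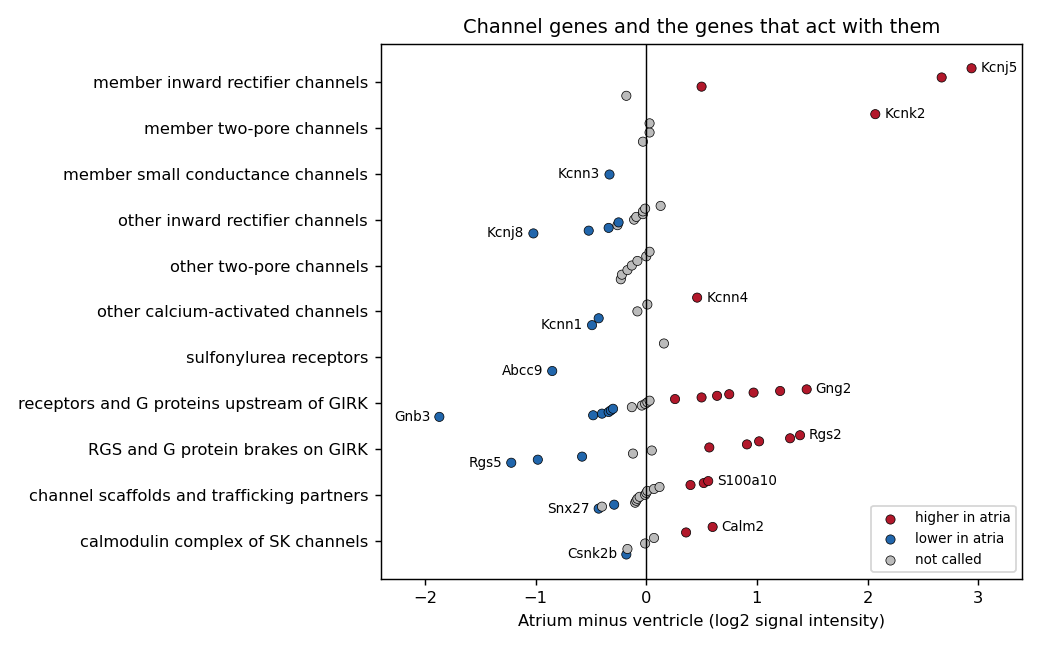
Each point is a gene, placed by atrium minus ventricle (x axis, log2 signal intensity) of its brightest probe set within its list (y axis), in red where called higher in the atria, blue where lower and grey where not called, with the outermost called genes of a list named. The points of Kcnj5, Kcnj3 and Kcnk2 lie at 2.07 to 2.94, and no gene of the related lists lies above 1.45.

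Markers of other cell types were also compared, beside the 22.5% of all genes called in each direction. Counts are of measured genes, and levels are sums of linear signal over a list, as the range over the arrays of a group. The lists in which most called markers were higher in the atria, as were the GIRK genes and TREK-1, were those of mesothelial cells (5 of 6 higher, 1 lower, 1067 to 2016 against 173 to 198 in the ventricles), fibroblasts (7 of 8 higher, 15291 to 17371 against 12220 to 13924), Schwann cells (2 of 4 higher, 1 lower, 329 to 373 against 96 to 104) and adipocytes (4 of 6 higher, 1560 to 4573 against 2176 to 2409). Of the neuronal genes 2 of 11 were higher, a share below that of all genes, with sums of 143 to 174 against 133 to 146, and 9 of the 11 were among the dimmest 40%. Of the pacemaker and conduction genes, 1 of 6 was higher and 1 lower, with sums of 152 to 206 against 106 to 119. Tbx18, at 6.55 against 4.38, was the gene called higher and the largest part of the atrial sum, and Hcn4 was lower (-0.36). The other probe sets of Shox2 were called higher (0.87 and 0.44) and those of Tbx3 lower (-0.74, -0.50 and -0.37). The lists in which most called markers were lower in the atria, as was Kcnn3, were those of endothelial cells (6 of 9 lower, 1 higher, 3023 to 3270 against 4106 to 4464), pericytes (7 of 7 lower, 1064 to 1207 against 2051 to 2181), smooth muscle (5 of 6 lower, 745 to 776 against 1111 to 1252) and leukocytes (3 of 6 lower, 198 to 249 against 241 to 272). The pericyte list holds Kcnj8, Abcc9 and Rgs5 themselves, and the Schwann cell list holds Mbp, a near profile of Kcnj5. Mbp, at an atrial mean of 7.99 against 5.07 in the ventricles, made up most of the atrial Schwann cell sum. Of the others in that list S100b was higher in the atria (2.06), Sox10 lower (-0.59) and Erbb3 not called (-0.20). The sums of neurons and leukocytes overlapped between the chambers, as did those of adipocytes. Fabp4, not called at 10.91 in the atria and 11.10 in the ventricles, made up most of the adipocyte sum. The 4 adipocyte genes called higher did not overlap between the chambers at their brightest probe sets. The muscle lists summed to 37498 to 40654 against 1475 to 2020 for atrial muscle and 805 to 4636 against 22598 to 23921 for ventricular muscle. The part of these cells in any difference of a channel gene was not tested.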

How the data were processed

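The authors hybridized biotin-labelled cRNA from 10 µg of total RNA of each pool to 1 array and summarized the scans by RMA, which adjusts the background, applies quantile normalization and gives a log2 intensity per probe set. These deposited log2 values were used as given (31042 probe sets, 1.90 to 13.77). The version of RMA was not given in the sources used here. The authors ranked genes by SAM, which was not run here. Each probe set was instead fitted with limma 3.58.1 in R 4.3.3 (lmFit and eBayes, atria against ventricles, no block), and p-values were adjusted by Benjamini and Hochberg's method across the whole array, with a threshold of 0.05. The study's thresholds were taken as an adjusted p of 0.0001, for its false discovery rate of 0.01%, and 1.8 fold. Gaps between 2 probe sets within an array were compared between the chambers by exact two-sided permutation over 70 relabellings, which cannot go below 0.0286 (scipy 1.17.1). Intervals are at the 95% level.

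Probe sets were named through the array's annotation, with symbols updated by gene ID (20758 probe sets). Of all probe sets, 20826 had 1 symbol, 436 had several genes and 9780 had none. The 14217 genes were each represented by their brightest probe set (mean of the 8 arrays). The dimmest 40% of probe sets had means up to 4.13. Replicate arrays of a group differed by a median of 0.1 to 0.149 per probe set, and the number of arrays limits the precision.

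The members and lists were chosen with earlier results of these data known. The text names every member probe set, up to 3 called genes per direction and list with the largest differences, and the 3 nearest profiles of each member past the study's thresholds. Other genes named were chosen after their values were seen. Fits were tested on simulated data. Promoter windows came from a RefSeq table of GRCr8, and member proteins were not analysed here.

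Alternatives were other normalizations, filters, thresholds, tests and summaries, a replicate block and arrays left out. Replicate numbers were not treated as pairing the pools: correlations of residuals of same-numbered atrial and ventricular arrays were -0.188 to 0.155, and those of other pairs -0.132 to 0.278. Each atrial array had its highest correlation with a different ventricular array: 1 with 1 (0.134), 2 with 2 (0.155), 3 with 4 (0.225) and 4 with 3 (0.278). A match of the pools in that order was not tested, and the replicate block does not follow it for replicates 3 and 4.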

Additional observations from a re-analysis of the deposited data

Results flagged for a closer look

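Among 40 groups of 4 arrays tested for a single far value, 2 were marked, and chance marks about 1 group in 20. At Kcnj3 1369740_at, atrial replicate 4 read 7.76, below the other atrial arrays at 8.26 to 8.34, and its gap made up 0.867 of the group's range, above Dixon's limit for 4 values. At Kcnk6 1370776_a_at, ventricular replicate 3 read 5.17, above the other ventricular arrays at 4.86 to 4.91, with a ratio of 0.830.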

How the results depend on the processing

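Of 237 alternative values over the 16 channel probe sets, 216 kept their direction and their side of the threshold, 12 reversed, 4 passed the threshold only in the alternative and 5 lost it. With 1 array left out, 7 channel probe sets stayed the count of those higher, 1 to 3 were lower, 3 genes passed the study's thresholds, and 17 to 18 genes of the related lists were higher and 18 to 22 lower. The count of lower probe sets was 1 with the dimmest 40% left out, since Kcnn3 is then not in the table. The probe sets that reversed were near 0 in all settings: after quantile normalization Kcnk1 was at 0.05, Kcnk2 1382723_at at -0.07, Kcnk3 1387441_at at -0.04 and Kcnk6 1387264_at at -0.01, and after cyclic loess normalization Kcnk1 was at 0.05, Kcnk2 1382723_at at -0.03 and Kcnk3 1387441_at at -0.03. With 1 array left out, Kcnj3 1388292_at ranged from -0.36 to -0.24, Kcnk2 1382723_at from -0.02 to 0.07, Kcnk6 1387264_at from -0.09 to 0.11, the gap Kcnj3 minus Kcnj5 from -0.36 to -0.18 and the gap Kcnk1 minus Kcnk6 from -0.13 to 0.05. Without atrial replicates 1 and 4, Kcnk6 1387264_at was at -0.12, the gap Kcnk1 minus Kcnk6 at 0.08, 7 probe sets were higher and 3 lower. With the mean of all probe sets of a gene, the changes of gap were -0.68 for Kcnj2 minus Kcnj12, -0.76 for Kcnj3 minus Kcnj5, 0.78 for Kcnk2 minus Kcnk3 (adjusted p = 0.0381 for each of these by exact permutation) and 0.10 for Kcnk1 minus Kcnk6 (0.571). Kcnj2 and Kcnj12 have 1 probe set each, so their change of -0.68 is the same value as in the main setting. Its adjusted p, 0.0571 there, moved only through the adjustment over the pairs. The cause of the other changes was not tested. With the replicate number as a block, 7 probe sets were higher and 3 lower, 3 genes passed the study's thresholds, Kcnk6 1370776_a_at was called at -0.31, and no other channel probe set changed its call. Signal near the array's floor limits what can be read from Kcnj2, Kcnk1 and Kcnn3, and from 26 of the 74 measured related genes.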
